A study of Anguilla anguilla with 12 samples.

Results

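The miR-10, miR-100, miR-125 and miR-196 families were described in small RNA of eel liver (European eel, Anguilla anguilla, at the yellow, growing stage). The study sampled 6 eels from the Gironde Estuary, which it describes as polluted, and 6 from Arcachon Bay, which it describes as pristine. The values are read counts of predicted microRNA (miRNA) precursors, with no column for a single eel, so they are taken as pooled over the livers. The most abundant sequence was miR-122, the defining miRNA of liver, with 176573973 mature reads. The values carry no spread between eels and allow no comparison of the sites. Members were all precursors whose listed zebrafish example with the same seed begins with miR-10, miR-99, miR-100, miR-125 or miR-196. This rule uses no read count, and it found 19 of 820 entries. After predictions that overlap on the same scaffold and strand were merged, 18 loci on 15 scaffolds were left, with 10 distinct mature sequences. No entry was named miR-99. That miRNA shares its seed with miR-100, and names in the list stand for seeds, so a miR-99 gene would be listed under miR-100. In the same way the name miR-10a-5p covers miR-10a and miR-10b. The other names in the list were miR-100-5p, miR-125a and miR-196a-5p, and each family is called by its number alone from here on. The name miR-100 thus means the seed family below, and its sequences were not assigned to miR-99 or miR-100.

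A miRNA is cut from a hairpin. Its mature arm is in most cases the more abundant product, its star arm is the opposite side of the hairpin, and bases 2 to 8 of the mature sequence form the seed that pairs with target messages. In vertebrates, genes of miR-10 and miR-196 lie inside the clusters of Hox genes, which set the identity of body regions along the head-to-tail axis, and miR-196 represses Hox messages. Genes of miR-100 (or miR-99), let-7 and miR-125 often lie next to each other in animal genomes. MiR-100 and miR-125 are widely expressed and are known in mammals from the control of cell growth and differentiation, and miR-125 (lin-4 in worms) and let-7 were first known as timers of development.

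The 10 mature sequences are shown with the seed in capitals, because the seed is what put each of them in its family. They run from 5′ to 3′ as deposited, and each name gives the scaffolds that carry the sequence.
miR-10, scaffolds 330 and 472: uACCCUGUagauccgaauuugu
miR-10, scaffolds 290, 513, 904 and 1004: uACCCUGUagaaccgaauuugu
miR-100, scaffolds 2237 and 269888: aACCCGUAgauccgaucuugu
miR-100, scaffold 1678: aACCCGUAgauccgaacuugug
miR-125, scaffold 7843: uCCCUGAGacccuaacucguga
miR-125, scaffold 1889: uCCCUGAGacccuaacuugug
miR-125, scaffolds 825 and 4953: uCCCUGAGacccuuaaccugug
miR-196, scaffolds 84, 290 and 1332: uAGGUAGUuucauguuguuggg
miR-196, scaffold 330: uAGGUAGUuucgaguuguugggc
miR-196, scaffold 513: uAGGUAGUuuuauguuguuggg

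Within a family the sequences differed outside the seed, and positions are counted from 1 at the 5′ end. The pair of miR-10 sequences differed by U12A alone. The miR-100 sequences differed by U16A, and the scaffold 1678 form was listed 1 base longer. The first 2 miR-125 sequences differed by C18U and by 1 base in length, while the third was 4 edits (substitutions, insertions or deletions) from the first and 2 from the second. The miR-196 sequence of scaffold 513 differed from the most abundant one by C11U, and that of scaffold 330 by A12G and U13A and 1 extra base at its end. Between families, miR-10 and miR-100 were the closest, 4 to 5 edits apart. The longest run they shared was GUAGAUCCGAA, of 11 bases, whose first bases lie in the seeds. miR-125 was 6 to 8 edits from miR-10 and 6 to 10 from miR-100, and miR-196 was 12 or more edits from each of the other three. Its seed AGGUAGU is also found at positions 3 to 9 of 12 of the 14 let-7 sequences, shifted by a base from the let-7 seed. Those 12 and the 3 miR-196 sequences are the 15 of all 676 distinct mature sequences that hold AGGUAGU (2.22%). No entry outside the members shared a run of 15 bases with any member, and the longest such run was 10 bases.

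The families stood far apart in reads. Each mature sequence was counted once, at its entry with the most mature reads, since for 4 of the 5 member sequences with several copies these were listed with nearly equal counts. Of the 272589277 mature reads counted in this way, miR-100 held 4975393 or 1.83% (exact binomial 95% interval 1.824% to 1.827%). miR-10 held 959113 reads or 0.352% (interval 0.3512% to 0.3526%). miR-125 held 140102 reads or 0.0514% (interval 0.0511% to 0.0517%), and miR-196 held 393 reads or 0.000144% (interval 0.000130% to 0.000159%). The intervals cover counting error only, neither eels nor copies made in amplification. miR-100 thus had 5.19 times the reads of miR-10, miR-10 had 6.85 times those of miR-125, and miR-125 had 356 times those of miR-196. Small RNA libraries capture some sequences better than others, so ratios between sequences compare reads, not molecules in the liver.

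A single sequence led each family. Among all 676 distinct mature sequences, the leading miR-100 sequence ranked 9th with 3226945 reads, and the scaffold 1678 form ranked 17th with 1748448. The miR-10 sequence of scaffolds 330 and 472 ranked 26th with 918850 reads and held 95.8% of the reads of its family. The U12A form ranked 59th with 40263 reads, although it was listed at 4 loci against 2 for the first. For miR-125 the 3 sequences lay closer together, with 87112 reads for scaffold 7843, 31245 for scaffold 1889, and 21745 for scaffolds 825 and 4953. For miR-196 they had 272, 113 and 8 reads, in the order in which they are shown.

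**Figure D1:**
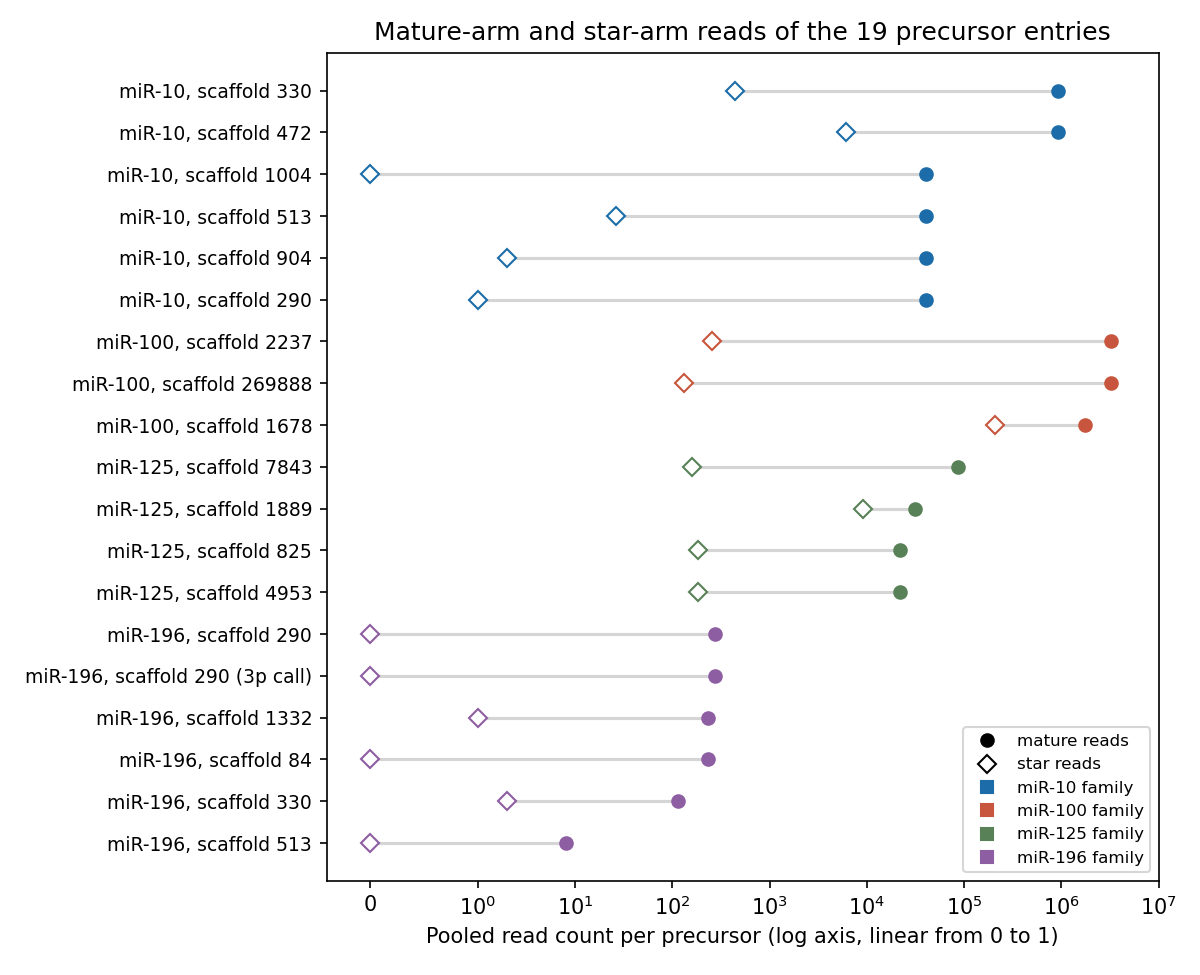
Pooled mature reads (filled circles) and star reads (open diamonds) of each of the 19 precursor entries, coloured by family, on a log axis that is linear between 0 and 1. Copies of a miR-10, miR-100 or miR-125 sequence have nearly the same mature count, miR-196 copies have 272 or 233 reads, and star reads of the miR-10 copies run from 0 to 6074.

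The 18 loci carried the mature sequence on the 5p arm in 18 cases, and 151 of the 272 other seed-matched loci did (55.5%). The rule chose members by the seed of the listed mature sequence, and most of the matched names are those of 5p products. A locus of these families listed with its opposite arm as mature would carry another seed and be no member. The rule thus largely set the count of 18, which is not a finding about arm use beside the other loci. Hairpins of a family also share ancestry, so these loci are not independent and the counts are given as a description. In 18 of the 19 entries the mature sequence opens the precursor and the star sequence closes it. The exception is a second prediction of miR-196 on scaffold 290. There the hairpins at 157386 to 157451 and at 157430 to 157488, both on the plus strand, overlap by 22 bases, which is the mature sequence itself. The first hairpin takes it as its 3p arm, the second as its 5p arm. Both are shown with their arms in capitals and the loop between them in lower case.
miR-196, scaffold 290, 5p prediction: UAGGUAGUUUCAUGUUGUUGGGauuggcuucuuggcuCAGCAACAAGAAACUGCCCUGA
miR-196, scaffold 290, 3p prediction: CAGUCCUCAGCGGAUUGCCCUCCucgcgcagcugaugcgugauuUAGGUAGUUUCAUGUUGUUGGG
Each had 272 mature and 0 star reads, which allows a star share of up to 1.10% if all these mature reads come from this locus. The miRDeep2 score, a log-odds score of the fit to a Dicer-cut hairpin, was 3.7 for the 5p prediction and 2.9 for the 3p one. The folded 5p prediction had a minimum free energy of -26.6 kcal/mol and 19 paired mature bases. The 3p prediction had -22.6 kcal/mol and 14 paired mature bases. The entry with the higher score was kept as the locus.

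The miR-100 family had 3 loci, which used the star arm very unevenly. On scaffold 1678 (122128 to 122183, plus strand) the star arm carried 205955 reads beside 1748448 mature reads, a star share of 10.5% (interval 10.49% to 10.58%). On scaffold 2237 (49611 to 49669, plus strand) it carried 256 reads beside 3226945, or 0.00793% (interval 0.00699% to 0.00897%). On scaffold 269888 (39 to 97, minus strand) it carried 130 reads beside 3226713, or 0.00403% (interval 0.00337% to 0.00478%). The star share of scaffold 1678 was thus 1328 times that of scaffold 2237. It was 22nd by star share among the 184 seed-matched loci with at least 1000 reads. By star reads it was 3rd among all seed-matched loci, after miR-30e on scaffolds 443840 and 93 with 345139 and 345134 star reads. It held 8.79% of the 2342616 star reads summed over all entries, where reads shared by copies count at each copy. Set among mature sequences, its star count would stand at rank 40. The hairpins are shown with both arms in capitals, since scaffolds 2237 and 269888 share the mature sequence and differ only in the star arm and loop.
miR-100, scaffold 1678: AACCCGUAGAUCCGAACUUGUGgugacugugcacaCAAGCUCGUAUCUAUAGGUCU
miR-100, scaffold 2237: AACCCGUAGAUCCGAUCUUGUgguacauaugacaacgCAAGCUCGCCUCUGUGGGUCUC
miR-100, scaffold 269888: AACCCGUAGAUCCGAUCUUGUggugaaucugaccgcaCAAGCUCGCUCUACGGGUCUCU
The star sequences of scaffolds 2237 and 269888 were 4 edits apart, so most of their star reads can be told apart even though their mature reads cannot. Of the 386 star reads of this pair, 66.3% lay on scaffold 2237. The star shares of this pair are set against shared mature reads, so the share of either locus alone could be higher.

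The miR-10 family had 6 loci, the most of the 4 families. The more abundant sequence had 918850 mature and 443 star reads on scaffold 330 (60733 to 60789, minus strand), and 918849 mature and 6074 star reads on scaffold 472 (53511 to 53572, minus strand). The mature reads do not separate these copies, but their star arms differ by a single base, G10A, shown in capitals.
miR-10 star arm, scaffold 472: caaauucguGucuaggggagu
miR-10 star arm, scaffold 330: caaauucguAucuaggggagu
Scaffold 472 had 13.7 times the star reads of scaffold 330, or 93.2% of the star reads of both. The mismatches allowed in placing reads are unknown here. With 1 allowed, some reads could have been counted at both. Star shares were 0.657% on scaffold 472 (interval 0.640% to 0.673%) and 0.0482% on scaffold 330 (interval 0.0438% to 0.0529%). Each is set against the mature reads that these copies share, so the share of either locus alone could be higher.

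The U12A sequence of miR-10 had 40260 to 40263 mature reads at each of its 4 loci, and its star arms had few reads. They numbered 26 on scaffold 513 (15782 to 15842, minus strand), 2 on scaffold 904 (61949 to 62009, plus strand), 1 on scaffold 290 (220527 to 220588, plus strand) and 0 on scaffold 1004 (59897 to 59958, minus strand). Scaffold 513 thus held 89.7% of the 29 star reads, at a star share of 0.0645% (interval 0.0422% to 0.0945%). The 0 reads of scaffold 1004 allow a share of up to 0.00745%. Both shares are set against mature reads that the 4 copies share, so the share of a single locus could be higher. The other star arms of this sequence are 5 to 10 edits from that of scaffold 513. The score was 20541.2 on scaffold 513 and 3.2, 3.4 and 3.2 on scaffolds 290, 904 and 1004, although the mature reads were nearly the same.

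The miR-125 family had 4 loci. On scaffold 1889 (629 to 690, plus strand) the star arm carried 9052 reads beside 31245 mature reads, a share of 22.5% (interval 22.06% to 22.87%), 13th among the 184 seed-matched loci with at least 1000 reads. Scaffold 7843 (187 to 249, plus strand) had 159 star reads beside 87112 mature reads, or 0.182% (interval 0.155% to 0.213%). The locus with fewer mature reads thus had far more star reads. Those hairpins are shown with both arms in capitals. Their star arms differ by 2 edits and the whole hairpins by 14.
miR-125, scaffold 1889: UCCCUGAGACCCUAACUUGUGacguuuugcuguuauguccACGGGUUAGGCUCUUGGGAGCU
miR-125, scaffold 7843: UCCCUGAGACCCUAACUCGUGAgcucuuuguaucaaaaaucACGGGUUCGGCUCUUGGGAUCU
The remaining copies, on scaffold 825 (47356 to 47413, minus strand) and on scaffold 4953 (from 22840 to 22897 on the minus strand), had 21745 mature reads each, with 185 and 182 star reads. Both of their arms are identical and the hairpins differ by 3 edits in the loop, so neither arm separates them. Scaffold 1889 also had 23 loop reads. The only other loop read of the 19 entries was on scaffold 472 of miR-10.

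The miR-196 family had 5 loci and few reads at each. The most abundant sequence had 272 mature reads on scaffold 290, and 233 on scaffold 84 (1184495 to 1184553, minus strand) as on scaffold 1332 (40198 to 40256, minus strand). This gap of 14.3% between copies was the widest for any member sequence listed more than once, and the other 4 such sequences differed by less than 0.01% between their copies. The base that follows the mature sequence, at position 23 of the hairpin, differs by A23C between scaffold 290 and both others. Compared position by position, the hairpin of scaffold 290 differs at 14 bases from that of scaffold 1332 and at 17 from that of scaffold 84. Whether any of these bears on the counts was not tested. Scaffold 330 (108937 to 108994, minus strand) had 113 mature reads and scaffold 513 (88403 to 88461, minus strand) had 8. Star reads were 2 on scaffold 330, 1 on scaffold 1332 and 0 on the others. At this depth a star share of about 1% could not be detected on scaffolds 84 and 290, where 0 star reads allow 1.29% and 1.10%. Both are set against mature reads that the copies on scaffolds 84, 290 and 1332 may share, so the limit for a single locus could be higher. For the 8 reads of scaffold 513 the limit is 37.5%.

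Set beside the other seed-matched loci, the star shares of the 4 families were spread in a similar way. The median over the 17 loci with 10 or more reads of both arms was 0.0645%, and over 262 others it was 0.0987%. Of the 17, 2 (11.8%) were above 10%, as were 26 (9.92%) of the 262. Median mature reads per locus were 40260.5 over the 18 loci and 7259.5 over 272 others. These are descriptions with no test, since copies share reads and ancestry. The median folding energy was -23.6 kcal/mol over the 18 hairpins and -23.7 kcal/mol over the others, and the median hairpin lengths were 59 and 60 nt.

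**Figure D2:**
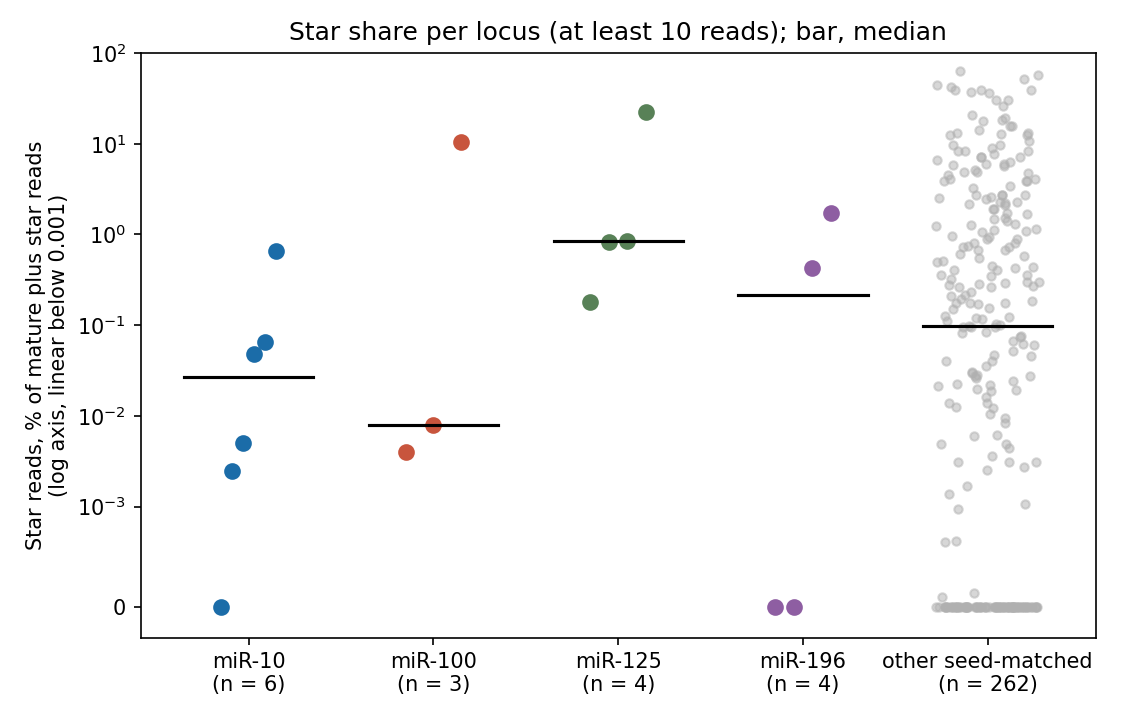
Star reads as a percent of mature plus star reads for each locus with at least 10 such reads, on a log axis that is linear below 0.001, by family and for the other seed-matched loci, with bars at the medians. A locus of miR-100 at 10.5% and a locus of miR-125 at 22.5% stand above the rest of their families.

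Neighbours fell into 2 arrangements, with let-7 beside miR-100 or miR-125, and with miR-196 and miR-10 on the same scaffold. Of the 18 loci, 9 had another precursor of the list on their scaffold and 9 had none. On scaffold 2237 a let-7 precursor (51744 to 51810) started 2133 bases after miR-100, and on scaffold 1678 another (122426 to 122492) started 298 bases after it. On scaffold 825 a let-7 precursor (54388 to 54457, minus strand) lay upstream of miR-125, with the starts 7032 bases apart. All 3 pairs lay on the same strand, with miR-100 before let-7 and let-7 before miR-125 in the direction of transcription. The let-7 partners, which the list names let-7j, have different mature sequences, shown with the let-7 seed in capitals.
let-7, scaffold 2237: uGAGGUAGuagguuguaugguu
let-7, scaffold 1678: uGAGGUAGuagguuguacaguu
let-7, scaffold 825: uGAGGUAGuugguuguaugguu
They had 1938743, 827047 and 105849 mature reads in this order. miR-100 thus had 1.66 times the reads of its neighbour on scaffold 2237 and 2.11 times on scaffold 1678, whereas miR-125 had 0.205 times the reads of its neighbour on scaffold 825. Of the 20 let-7 loci, 3 lay within 10 kb of a member. The remaining neighbour was an unmatched hairpin with 15 mature and 0 star reads, 28.3 kb upstream of miR-100 on scaffold 1678.

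Where the let-7 partner sequence had a second copy, so did the neighbouring member. The let-7 sequence of scaffold 2237 was also listed on scaffold 11165, and the miR-100 sequence of scaffold 2237 also on scaffold 269888. The let-7 sequence of scaffold 825 was also listed on scaffold 29554, and the miR-125 sequence of scaffold 825 also on scaffold 4953. On scaffold 1678 neither had a second copy. Counts of the copied sequences may therefore include reads of the other copy, and the ratios above hold for sequences rather than loci.

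Of the 7 loci of miR-100 and miR-125, 4 had no let-7 on their scaffold. In 3 of these the scaffold starts within 1000 bases on the side where let-7 lay in the pairs. For miR-125 that side is known from the pair on scaffold 825 alone. These are miR-100 on scaffold 269888, with 38 bases left downstream, and miR-125 on scaffolds 7843 and 1889, with 186 and 628 bases left upstream. A neighbour at the distances seen on scaffolds 2237 and 825 could not be listed there. At the 298 bases seen for miR-100 on scaffold 1678, a neighbour would have had room on scaffold 1889. Why no let-7 was listed on these scaffolds was not tested. Of all 18 loci, 3 (16.7%) began within the first 1000 bases of a scaffold, as did 12.5% of the 272 other seed-matched loci. Scaffold lengths are not in the list, so the far ends could not be looked at.

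Predicted precursors of miR-196 and miR-10 shared scaffolds 330, 290 and 513, and no other precursor was listed on those. They lay on the same strand in 3 of 3 cases, with miR-196 upstream of miR-10. Scores were 3.7 for miR-196 and 3.2 for miR-10 on scaffold 290, and 1.8 for miR-196 on scaffold 513. Only on scaffold 330 did both precursors score at least 4. The starts were 48.2 kb apart on scaffold 330, 63.1 kb on scaffold 290 and 72.6 kb on scaffold 513. Mature reads listed for such a pair were very unequal, with 113 for miR-196 and 918850 for miR-10 on scaffold 330, 272 and 40260 on scaffold 290, and 8 and 40261 on scaffold 513. The miR-10 sequences of these pairs, and the miR-196 sequence of scaffold 290, are also listed on other scaffolds. Their counts may include reads of those copies, so the inequality holds for sequences rather than loci. In vertebrate Hox clusters that hold both genes, miR-196 lies upstream of miR-10, but a cluster need not hold both. The Hox genes of these scaffolds are not stated, since no annotation of this assembly was used here. Of the 5 loci without the other family on their scaffold, miR-196 on scaffold 1332 had 40.2 kb left downstream, less than the shortest of the 3 distances, and miR-196 on scaffold 84 had 1184 kb left there. miR-10 on scaffold 904 had 61.9 kb left upstream, between the shortest and the longest distance.

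**Figure D3:**
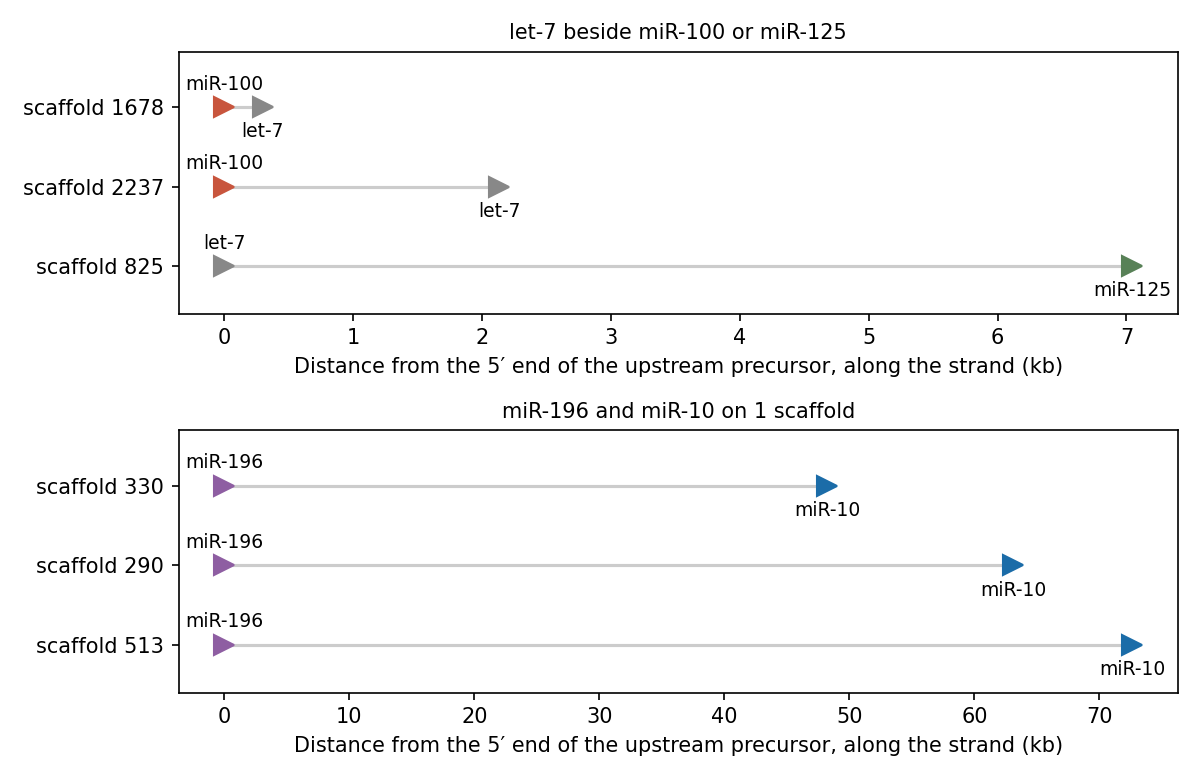
Distance in kb, along the strand, from the 5′ end of the upstream precursor to that of the downstream one, for the 3 scaffolds with let-7 beside a member (upper panel) and the 3 scaffolds with miR-196 and miR-10 (lower panel). miR-100 comes before let-7, let-7 before miR-125, and miR-196 before miR-10 on each scaffold drawn.

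With 10 kb as the largest distance between neighbouring starts, 3 of 18 loci (16.7%, interval 3.58% to 41.4%) had a neighbour on the same strand. Of the 272 other seed-matched loci, 100 (36.8%, interval 31.0% to 42.8%) had one, and of all 789 loci of the list, unmatched ones included, 129 (16.3%) did. With 100 kb, a distance chosen after the data were seen, the counts were 9 of 18 and 111 of 272 (40.8%), and the share of all loci was 21.2%. The 4 families thus gained 6 of their 9 loci with a neighbour between 10 and 100 kb, where the 3 pairs of miR-196 and miR-10 lie. Both loci of a pair of members are counted, and loci share ancestry, so they are not independent. The intervals serve as description only, and no test was made.

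The hairpins themselves formed close pairs. In miR-10, scaffolds 904 and 1004 were 4 edits apart, scaffolds 330 and 472 were 6 apart, and scaffolds 290 and 513 were 8 apart. Each of these 6 hairpins had its pair partner as its nearest relative in the family. The hairpins of scaffolds 904 and 1004 share the U12A mature sequence with those of scaffolds 290 and 513. As whole hairpins they were nevertheless 8 to 12 edits from those of scaffolds 330 and 472, and 14 to 16 edits from those of scaffolds 290 and 513. In miR-196, scaffolds 290 and 513 were the closest pair, at 4 edits, although their mature sequences differ by C11U, and scaffolds 84 and 1332 were 9 apart. Scaffolds 290 and 513 were therefore nearest relatives of each other for both miRNAs they carry. The miR-196 hairpin of scaffold 330 stood farthest off, 14 to 21 edits from the others.

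**Figure D4:**
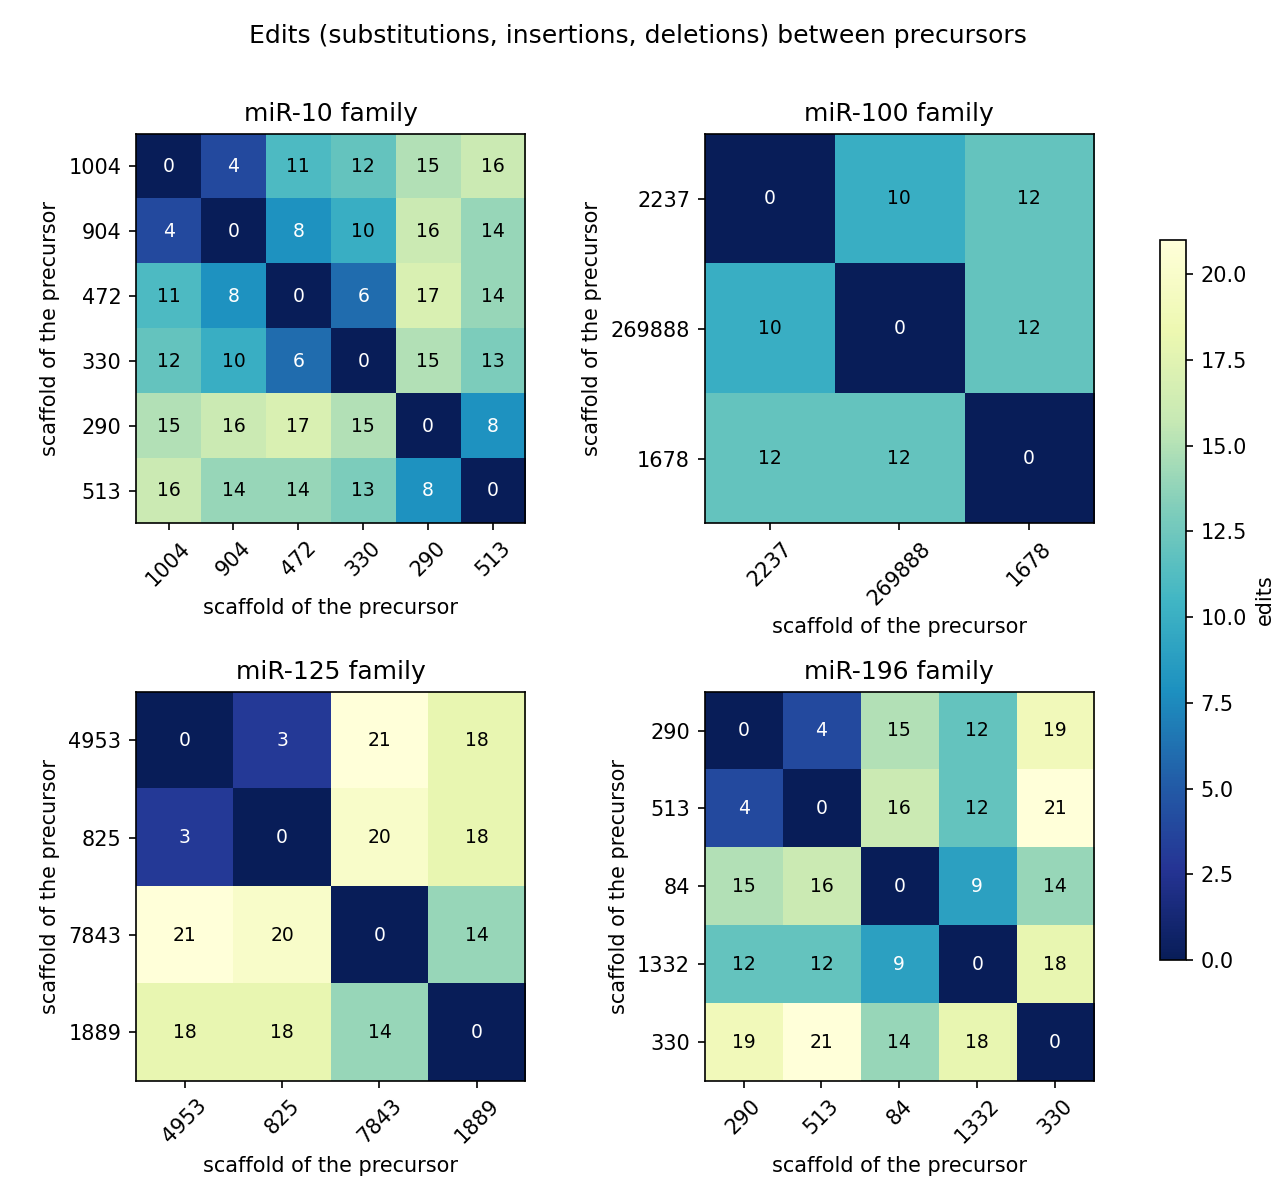
Number of edits (substitutions, insertions and deletions) between the precursors of each pair of loci within a family, with scaffolds on both axes and dark cells for few edits. Scaffolds 290 and 513 are 8 edits apart for miR-10 and 4 for miR-196, the smallest values in their rows other than the diagonal of 0.

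In miR-100 and miR-125 the closest hairpins were those with the same mature sequence. The miR-100 hairpins of scaffolds 2237 and 269888 were 10 edits apart, and that of scaffold 1678 was 12 from each. The miR-125 hairpins of scaffolds 825 and 4953 were 3 edits apart and 18 to 21 from those of scaffolds 1889 and 7843.

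Scores split the members into 2 sets. They were 10 or more for 12 entries and between 1.8 and 3.7 for the other 7, of which 3 were miR-10 and 4 miR-196 entries. No entry of the low set had more than 2 star reads, but 2 miR-196 entries of the high set had only 1 and 2, on scaffolds 1332 and 330 with scores of 121.1 and 61.6. The mature counts of the low set ran from 8 to 40263 reads, so low scores were not limited to loci with few mature reads.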

How the data were processed

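Per the labels, the 12 livers went through a microRNA isolation kit and a small RNA library kit for Illumina. Of tools, bcl2fastq 2.17.1.14 is named, per the submitters' processing notes. The authors deposited the output of miRDeep2, per the file headers: 820 predicted precursors with raw mature, star, loop and total read counts and a miRDeep2 score. The total count equalled the sum of its parts in 820 of 820 entries. No column names a library, so counts are treated as pooled, the depth of single libraries is unknown, and the planned count test between sites was not run. Not given in the sources used here were the aligner, the mismatches allowed, the miRDeep2 version and the name of the build. Scaffold numbers are as listed, and 1 was added to starts, which count from 0.

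Overlapping predictions on the same scaffold and strand were merged to the entry with most reads, then the higher score. Star share is star over mature plus star reads, at 10 or more such reads, with exact (Clopper-Pearson) 95% intervals. The mature count is the one listed at the entry, also where copies share it, and the intervals do not cover this sharing. A count of 0 was taken to allow 3 reads. Neighbours are loci on the same scaffold and strand with starts within 10 kb. Likeness is the edit distance. Hairpins were folded as deposited with RNAfold 2.7.2. Python 3.11.15, pandas 2.3.3, numpy 2.4.6, scipy 1.17.1 and matplotlib 3.10.9 were used, and the functions were tested on simulated data. Alternatives were score and read minimums, other counts of copies, other distances, and membership by sequence. All members are named, with every precursor within 50 kb of a member, except where stated. Members, lists and rules were chosen with earlier results of these data known.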

Additional observations from a re-analysis of the deposited data

Results flagged for a closer look

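Loop reads entered no comparison. The miR-125 precursor on scaffold 1889 had 23 of them, beside 31245 mature and 9052 star reads. That is 0.736 loop reads per 1000 mature reads. Among the other seed-matched loci, 31 of 272 (11.4%) had more than 3 loop reads, and 17 seed-matched loci had more than this precursor. The mark of 3 reads is descriptive and no limit of detection. No cause was tested.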

How the results depend on the processing

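No paired analysis was possible because the counts are not divided by eel. In the order miR-10, miR-100, miR-125 and miR-196, the read shares were 0.515%, 2.11%, 0.0417% and 0.000291% with reads summed over entries. They were 1.04%, 5.37%, 0.151% and 0.000374% at a score of at least 4, and the same to 3 digits at 10. Both score minimums drop the miR-122 sequence with 176573973 mature reads, so far fewer other reads are left. With 1 sequence per seed the shares were 0.376%, 1.32%, 0.0356% and 0.000111%. Total reads gave 1.89% for miR-100 and 0.0545% for miR-125. At least 1 star read gave 1.827% for miR-100 and 0.000127% for miR-196. The order of the families was the same under each of these settings. Scores of at least 4 and of at least 10 left 3 miR-10 and 2 miR-196 loci. Of the pairs of miR-196 and miR-10, that of scaffold 330 alone was left whole. The median star share over loci was 0.0266% for miR-10 and 0.837% for miR-125 at each read minimum. With at least 1000 reads, 0 miR-196 loci were left for the arm. Loci with a neighbour numbered 5 at 50 kb, and 9 at 100 kb or at any distance on the scaffold, both chosen after seeing the data. Choosing members by sequence changed no count. Depth limits the star shares of miR-196 most.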
